A study of Mus musculus with 12 samples.

Results

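The genes described are 34 that mark endothelial cells or act in the growth of vessels. They were taken by symbol from the table of all genes: 16 pan-endothelial genes, 4 venous and capillary genes, 5 tip cell and sprouting genes, 6 arterial and Notch genes, 2 lymphatic genes and 1 gene for a ligand that acts on vessels. All 34 were among the 39210 genes of the table, and all 34 were among the 13960 genes that held enough reads to be tested. RNA from frozen heart ventricles of C57BL/6 mice was sequenced as 12 libraries in 4 groups of 3: male normoxia, male hypoxia, female normoxia and female hypoxia. In the hypoxia groups the oxygen was lowered in steps of 1% a day over 14 days to 7%, and stayed there for 2 weeks. The normoxia groups breathed room air with 20.9% oxygen for 4 weeks. The labels name no engineered allele, drug or age for any group. Left and right ventricle are not told apart in the labels, nor is it stated that each library came from 1 animal, so the p-values measure the spread between these libraries.

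Endothelial cells line all vessels and are held together by junction proteins such as VE-cadherin. Their identity is kept by ETS factors (Erg, Fli1) and SOXF factors (Sox7, Sox17, Sox18). A new sprout is led by a tip cell, which responds to VEGF and signals through Dll4 to Notch receptors on the cells behind it. Notch signalling also takes part in arterial identity. The angiopoietins act through the receptor Tek (TIE2): Angpt1 activates it and steadies vessels, while Angpt2, released by endothelial cells, often opposes Angpt1. In the heart, capillaries are dense and run between the cardiomyocytes.

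Library totals ran from 14915800 to 19397900 estimated counts. Levels between libraries are given as CPM, estimated counts scaled to library sizes corrected by TMM, and levels between genes as TPM, which also divides by transcript length. Mitochondrial transcripts took 24.5% to 29.3% of counts in the normoxia libraries and 15.8% to 23.1% in the hypoxia libraries. A few libraries stood apart. The summed level of 8 atrial cardiomyocyte markers was 173 to 325 CPM in the normoxia libraries, and reached 1777 and 1004 CPM in male hypoxia libraries 2 and 3 and 1108 CPM in female hypoxia library 3. The 4 adipocyte markers summed to 27.6 and 22.4 CPM in male hypoxia libraries 2 and 3, and to at most 3.74 CPM in each of the others. In female normoxia library 3, 10 immediate early genes summed to 890 CPM, against at most 245 CPM in the other libraries. Counts of genes that depend on these libraries are given with and without them.

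Endothelial transcripts were a small part of each library. The 34 genes together took 0.149% ± 0.0122 of estimated counts in male normoxia and 0.276% ± 0.0368 in male hypoxia (SD, n = 3 each). In females the share was 0.171% ± 0.0181 in normoxia and 0.292% ± 0.0612 in hypoxia (SD, n = 3 each). The highest normoxia library, at 0.190%, was below the lowest hypoxia library, at 0.223%. These are shares of all estimated counts, mitochondrial ones included, without TMM factors. The TMM factors were 0.900 to 0.968 in normoxia and 0.975 to 1.18 in hypoxia. The shares thus differ more between normoxia and hypoxia than levels scaled by TMM. In tissue RNA, fewer cells of a type and less RNA per cell cannot be told apart, and the same holds for more of either.

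Per unit of transcript length, Egfl7 (a secreted factor of endothelial cells) was the most abundant of the 34, at 124 ± 38.8 TPM in normoxia (SD over the 6 normoxia libraries of both sexes). Its mean transcript length in the table was short. Next came Eng, the TGF-beta co-receptor endoglin, at 41.6 ± 7.87 TPM, and Pecam1, the junction protein CD31, at 36.7 ± 6.44 TPM. Eng and Pecam1 did not differ beyond their spread, and neither did Esam (29.6 ± 5.25 TPM) and Cdh5 (27.3 ± 2.95 TPM). The junction genes and Sox18 (20.2 ± 6.51 TPM) thus stood in the upper part of the order. Of the 5 tip cell and sprouting genes, Pdgfb stood at rank 12, and Apln, Cxcr4, Angpt2 and Esm1 at rank 25 or lower in the order. Esm1 was lowest, at 0.314 ± 0.162 TPM, and Angpt2 and Cxcr4 were at 0.999 ± 0.482 and 1.50 ± 0.400 TPM. In hypoxia the first 6 genes kept the order Egfl7, Eng, Pecam1, Esam, Cdh5 and Sox18. Vwf moved from rank 15 to rank 11 and Cxcr4 from rank 31 to rank 24, while Prox1 went from rank 23 to rank 29.

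Most of the 34 genes were higher in hypoxia. With the effect of hypoxia averaged over the sexes, 22 of 34 rose and 2 of 34 fell (Prox1 and Angpt1) in edgeR's quasi-likelihood test at an adjusted p under 0.05. Among all genes tested, 15.0% were called higher and 12.9% lower in this comparison. The median log2 fold change was 0.50 over the 34 genes and -0.01 over all genes tested. By role, the medians were 0.56 for pan-endothelial, 0.87 for tip cell and sprouting, 0.61 for arterial and Notch, and 0.35 for venous and capillary genes. The counts that rose were 12 of 16, 3 of 5, 5 of 6 and 2 of 4 in the same order. In that order the medians were 0.61, 1.14, 0.56 and 0.41 in males and 0.68, 0.60, 0.67 and 0.54 in females. With an offset for transcript length the averaged medians were 0.56, 0.75, 0.78 and 0.11. The order of the roles thus differed between the sexes and with the offset. In both sexes every hypoxia library lay above every normoxia library for 16 of the 34 genes and below for 0, against 7.79% and 6.92% of all genes tested. Without TMM factors, the median of all genes shifted to 0.20 and that of the pan-endothelial genes to 0.77, and 86.8% of the called genes were higher in place of 54.0%. In the fit with TMM factors, the 10 genes that did not pass were Cldn5, Robo4, S1pr1, Erg, Plvap, Aplnr, Apln, Pdgfb, Dll4 and Mmrn1. Without male hypoxia libraries 2 and 3, 13 of 34 were called higher and 0 lower, against 5.41% and 3.42% of all genes in that fit, and all 13 were among the 22. By role these were 8 of 16 pan-endothelial, 1 of 4 venous and capillary, 1 of 5 tip cell and sprouting and 3 of 6 arterial and Notch genes.

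**Figure D1:**
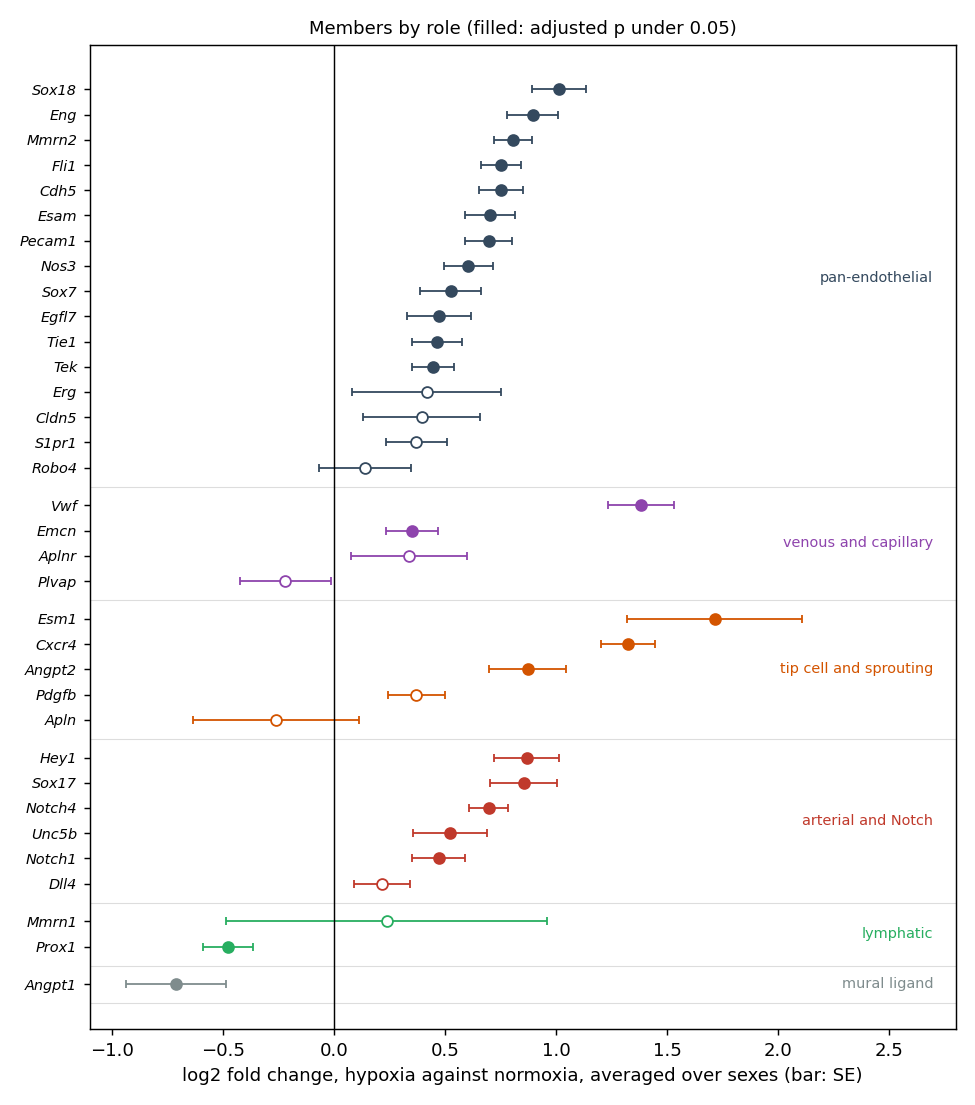
Log2 fold change of the 34 genes in hypoxia against normoxia averaged over sexes, by role; bars are standard errors and filled points have an adjusted p under 0.05. Filled points lie right of 0 except Prox1 and Angpt1, and the venous and tip cell genes spread more widely than the pan-endothelial ones.

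Among pan-endothelial genes, Mmrn2 had the smallest p. Mmrn2 (ENSMUSG00000041445) encodes a matrix protein that endothelial cells lay down. In males it was at 44.3, 53.7 and 47.3 CPM in normoxia and at 74.2, 87.6 and 94.2 CPM in hypoxia, and in females at 50.4, 42.0 and 48.4 CPM and at 73.5, 81.1 and 89.6 CPM. All 6 hypoxia libraries were above all 6 normoxia libraries. Its log2 fold change was 0.81 ± 0.09 (SE, adjusted p = 0.000317).

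Sox18 (ENSMUSG00000046470), a SOXF factor, rose most of this role, by 1.01 ± 0.12 on the log2 scale (adjusted p = 0.000465). It was at 41.1, 40.3 and 37.0 CPM in male normoxia and 87.3, 73.5 and 101 CPM in male hypoxia, and at 47.5, 53.5 and 76.8 CPM in female normoxia and 104, 102 and 121 CPM in female hypoxia. The groups did not overlap within either sex, and female normoxia library 3 was the highest normoxia library. The other SOXF gene of this role, Sox7, rose by 0.52 ± 0.14 (adjusted p = 0.0156). The adjusted p of Sox7 was 0.0857 without male hypoxia libraries 2 and 3.

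Fli1 (ENSMUSG00000016087), an ETS factor of endothelial and blood cells, was at 10.8, 9.68 and 11.7 CPM in male normoxia and 18.6, 15.3 and 19.9 CPM in male hypoxia. Its female values were 11.7, 10.5 and 10.8 CPM and at 16.5, 19.8 and 19.6 CPM. Its groups did not overlap in either sex, and it rose by 0.75 ± 0.09 (adjusted p = 0.000474). Erg, its close relative, varied far more. It was at 10.5, 8.0 and 8.81 CPM in male normoxia and 14.3, 7.24 and 2.75 CPM in male hypoxia, and at 3.99, 7.49 and 4.81 CPM in female normoxia and 14.5, 7.01 and 11.4 CPM in female hypoxia. The Erg groups overlapped in both sexes, and its value was 0.42 ± 0.33 (adjusted p = 0.377).

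Eng (ENSMUSG00000026814) was at 157, 171 and 177 CPM in male normoxia and 301, 299 and 369 CPM in male hypoxia. The female libraries gave 193, 147 and 225 CPM and at 293, 336 and 390 CPM. Every hypoxia library was above every normoxia library, and the log2 fold change was 0.89 ± 0.11 (adjusted p = 0.000585). Genes of the junctions rose as well: Cdh5, which encodes VE-cadherin, by 0.75 ± 0.10, Pecam1 by 0.70 ± 0.11 and Esam, a junction adhesion protein, by 0.70 ± 0.11. The adjusted p-values were 0.000682, 0.00127 and 0.00174. Nos3, the endothelial nitric oxide synthase, rose by 0.60 ± 0.11 (adjusted p = 0.00293). The angiopoietin receptor pair rose less, Tek by 0.44 ± 0.10 and Tie1 by 0.46 ± 0.11, with adjusted p-values of 0.00629 and 0.0112 that were 0.0869 and 0.123 without male hypoxia libraries 2 and 3. Egfl7 rose by 0.47 ± 0.14 (adjusted p = 0.0304), a call that was lost in 11 of 24 alternative settings. It was kept without male normoxia library 3, male hypoxia library 1, female normoxia library 3 or female hypoxia library 1, and the adjusted p was 0.062 to 0.0776 without any 1 of the other libraries.

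Cldn5, the tight junction claudin of endothelial cells, did not pass, and 1 library set its value. It was at 17.0, 17.0 and 17.2 CPM in male normoxia and 29.9, 39.3 and 40.1 CPM in male hypoxia. Female normoxia was at 22.4, 20.3 and 68.6 CPM and female hypoxia at 27.2, 27.5 and 35.4 CPM. Library 3 of female normoxia was the highest of all 12. The averaged log2 fold change was 0.40 ± 0.26 (adjusted p = 0.285), and without that library it was 0.79 with an adjusted p of 0.000629. S1pr1, a receptor for sphingosine 1-phosphate that guards the vessel barrier, was at 0.37 ± 0.14 (adjusted p = 0.065). Its adjusted p was 0.0113 without female normoxia library 3 and 0.0258 without female hypoxia library 1. Robo4, an endothelial roundabout receptor, was at 0.14 ± 0.21 (adjusted p = 0.648).

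**Figure D2:**
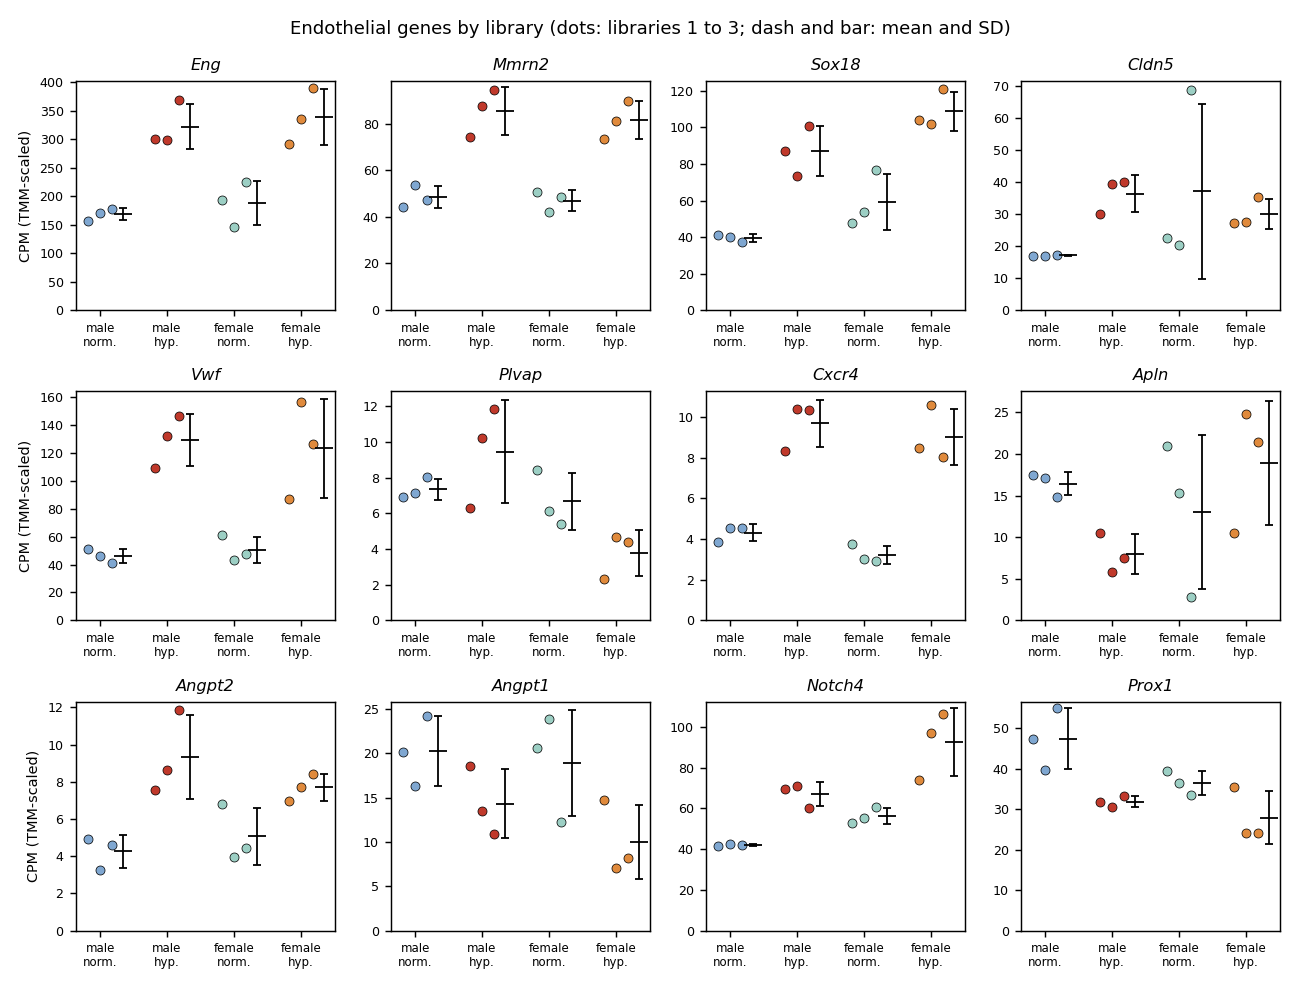
CPM of 12 of the genes in each library, by group of 3; dashes and bars are the mean and SD, and every axis starts at 0. Eng, Mmrn2, Sox18, Vwf, Cxcr4 and Notch4 do not overlap between normoxia and hypoxia within a sex, while Cldn5 and Apln each have a female normoxia library 3 far from the other 2.

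Promoter sequence was read for the genes present in the RefSeq promoter table of GRCm38.p6, which holds 250 bases before to 50 bases after each start. It held 17 of the 34 genes, with 22 windows of 300 bases. Eng and Notch4 are shown because they rose with small p-values, Tie1 because it holds both forms of the ETS motif searched, and Cxcr4 because it had the smallest p of the 34 and holds neither. Capitals mark AGGAAG or CGGAAG on either strand, letters that ETS factors such as Erg and Fli1 can bind. The windows are Eng at chr2:32646345-32646644 (plus strand), Tie1 at chr4:118489800-118490099 (minus strand), Notch4 at chr17:34564045-34564344 (plus strand) and Cxcr4 at chr1:128592250-128592549 (minus strand).
Eng: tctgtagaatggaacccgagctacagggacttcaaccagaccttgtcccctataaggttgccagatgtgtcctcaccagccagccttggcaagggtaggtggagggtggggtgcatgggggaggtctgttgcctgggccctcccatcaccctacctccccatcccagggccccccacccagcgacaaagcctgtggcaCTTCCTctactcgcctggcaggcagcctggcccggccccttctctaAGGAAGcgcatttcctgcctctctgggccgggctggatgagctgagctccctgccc
Tie1: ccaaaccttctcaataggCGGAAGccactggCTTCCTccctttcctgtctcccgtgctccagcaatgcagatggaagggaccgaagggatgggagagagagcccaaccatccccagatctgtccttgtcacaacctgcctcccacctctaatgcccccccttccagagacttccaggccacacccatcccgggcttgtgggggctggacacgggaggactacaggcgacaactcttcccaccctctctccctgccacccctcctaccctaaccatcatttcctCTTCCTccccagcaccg
Notch4: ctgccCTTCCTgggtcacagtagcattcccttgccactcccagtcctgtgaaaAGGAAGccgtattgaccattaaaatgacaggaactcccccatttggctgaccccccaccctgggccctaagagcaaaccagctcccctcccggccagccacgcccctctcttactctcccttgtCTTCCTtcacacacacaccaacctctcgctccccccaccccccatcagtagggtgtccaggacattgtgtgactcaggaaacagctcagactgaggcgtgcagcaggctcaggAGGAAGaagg
Cxcr4: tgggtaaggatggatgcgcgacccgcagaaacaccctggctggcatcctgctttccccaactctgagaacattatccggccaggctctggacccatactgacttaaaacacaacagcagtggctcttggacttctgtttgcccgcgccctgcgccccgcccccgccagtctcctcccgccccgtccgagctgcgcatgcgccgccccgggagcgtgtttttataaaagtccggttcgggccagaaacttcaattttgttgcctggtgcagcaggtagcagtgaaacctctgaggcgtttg

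The Eng window held 2 marked matches, Tie1 held 3, Notch4 held 4 and Cxcr4 held 0. At least 1 form was in 9 of the 22 windows (40.9%), against 46.5% of the 32851 promoters in the table. The SOX letters AACAAT were in 4 of the 22 windows (18.2%, against 10.7%), those of Emcn, Erg, Mmrn1 and Tek. TGGGAA, the letters of the Notch partner RBPJ, were in 5 windows (22.7%, against 25.6%). ACGTG, the core of a hypoxia response element, was in 0 of the 22 windows and in 19.6% of all. Both strands were searched, and each motif was counted apart from the others. These are matches of letters in 300 bases and say nothing of binding.

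The venous and capillary genes did not move together. Vwf (ENSMUSG00000001930), the clotting protein von Willebrand factor, which is highest in venous endothelium, was at 51.1, 45.8 and 41.3 CPM in male normoxia and 109, 132 and 146 CPM in male hypoxia. Its female values were 61.1, 43.3 and 47.8 CPM and at 86.6, 157 and 126 CPM. No hypoxia library came down to a normoxia library, and Vwf rose by 1.38 ± 0.15 (adjusted p = 0.000313), a 2.61-fold change. Megakaryocytes and platelets also hold Vwf, and 2 of their 3 tested markers rose with it. Of 11 such markers 3 were tested, and the others held too few reads. Ppbp and Pf4 rose, while Itga2b did not pass, at 0.34 averaged and -0.50 in females. The 3 summed to 10.2 to 13.6 CPM in normoxia and 17.5 to 39.4 CPM in hypoxia. Gp6 was at 0 counts in every library, and Gp1ba reached at most 4 estimated counts. Their part in the Vwf result was not tested.

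Emcn (ENSMUSG00000054690), the sialomucin endomucin of veins and capillaries, was at 40.6, 42.0 and 49.8 CPM in male normoxia and 46.6, 59.4 and 75.4 CPM in male hypoxia. The female libraries gave 44.6, 41.2 and 47.4 CPM and at 44.5, 59.0 and 54.7 CPM. The groups overlapped in both sexes. Its log2 fold change was 0.35 ± 0.12 (adjusted p = 0.0434), a call that was lost in 13 of 24 alternative settings. This call, too, was kept only without male normoxia library 3, male hypoxia library 1, female normoxia library 3 or female hypoxia library 1 among the fits with 1 library left out, with an adjusted p of 0.0712 to 0.105 in the others. It was 0.16 with an adjusted p of 0.366 without male hypoxia libraries 2 and 3.

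Plvap (ENSMUSG00000034845), which forms the diaphragms of fenestrated endothelium, was at 6.92, 7.13 and 8.03 CPM in male normoxia and 6.29, 10.2 and 11.9 CPM in male hypoxia. Female normoxia and hypoxia were at 8.44, 6.14 and 5.43 CPM and at 2.31, 4.66 and 4.42 CPM. Its male groups overlapped and every female hypoxia library was below every female normoxia library. The averaged value was -0.22 ± 0.21 (adjusted p = 0.452). Aplnr, the apelin receptor, which marks veins, was at 24.0, 43.7 and 31.7 CPM and at 23.3, 21.2 and 44.6 CPM in males. Its female values were 36.2, 37.3 and 16.6 CPM and at 37.1, 56.7 and 66.7 CPM. Its value was 0.34 ± 0.26 (adjusted p = 0.357), and with an offset for transcript length it was -0.14 (adjusted p = 0.776).

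Other genes of veins and capillaries, listed beside the 34, were read off the same fit. Among all genes tested, with all libraries, 15.0% were called higher and 12.9% lower. Of 10 venous genes 7 rose and 1 fell, with a median of 0.74. Tmem252 rose by 3.67 ± 0.41 and the matrix proteoglycan gene Bgn by 1.33 ± 0.20 (adjusted p = 0.000372 and 0.00115). The count was 2 higher and 0 lower without male hypoxia libraries 2 and 3. Of 10 capillary genes 3 rose and 2 fell, with a median of -0.10, and 1 rose and 2 fell without male hypoxia libraries 2 and 3. The 2 that fell were Aqp1, a water channel, at -1.64 ± 0.13 on the log2 scale (adjusted p = 4.76e-05), and Rgcc at -0.53 ± 0.11 (adjusted p = 0.00525). Fewer of all genes were also called without male hypoxia libraries 2 and 3, as given above. Lower counts in that fit thus do not by themselves describe a list, here or for the lists below. Fibroblast markers rose too, as given below (8 of 12 higher, 0 lower), and their part in the Bgn result was not tested.

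Of the tip cell and sprouting genes, Cxcr4, Angpt2 and Esm1 rose. Cxcr4 (ENSMUSG00000045382) is the receptor of the chemokine CXCL12 and is also carried by leukocytes. It was at 3.84, 4.57 and 4.53 CPM in male normoxia and 8.34, 10.4 and 10.4 CPM in male hypoxia, and at 3.74, 3.04 and 2.90 CPM and at 8.47, 10.6 and 8.02 CPM in females. All 6 hypoxia libraries were above all 6 normoxia libraries, with no value between 4.57 and 8.02 CPM. Cxcr4 rose 2.51-fold, by 1.33 ± 0.12 (adjusted p = 0.000132), the smallest p of the 34 genes. Against 15.0% and 12.9% of all genes tested, 4 of 13 tested lymphocyte and myeloid markers rose and 2 fell. Their sum was 189 to 264 CPM in normoxia, 365 to 468 CPM in male hypoxia and 217 to 326 CPM in female hypoxia, and their part in the Cxcr4 result was not tested. Cxcr4 was called higher without male hypoxia libraries 2 and 3 too.

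Angpt2 (ENSMUSG00000031465), the ligand that endothelial cells store and release, was at 4.91, 3.26 and 4.60 CPM in male normoxia and 7.55, 8.63 and 11.9 CPM in male hypoxia. In females it was at 6.83, 3.98 and 4.44 CPM and at 6.99, 7.73 and 8.43 CPM. The groups did not overlap within a sex, by a narrow margin in females, and Angpt2 rose by 0.87 ± 0.17 (adjusted p = 0.00458). With an offset for transcript length the value was 0.75 with an adjusted p of 0.0568, and without male hypoxia libraries 2 and 3 it was 0.72 with an adjusted p of 0.0586. Esm1 (ENSMUSG00000042379), the tip cell gene endocan, was low throughout. It was at 1.07, 0.979 and 1.62 CPM and at 2.52, 3.86 and 5.15 CPM in males, and at 1.67, 0.702 and 0.247 CPM and at 1.54, 3.78 and 3.64 CPM in females. The female groups overlapped through female hypoxia library 1. Esm1 rose by 1.71 ± 0.40 (adjusted p = 0.00904), which was 1.41 with an adjusted p of 0.0997 without male hypoxia libraries 2 and 3.

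Apln (ENSMUSG00000037010), which encodes the peptide apelin, did not follow these 3 genes. It was at 17.4, 17.1 and 14.8 CPM in male normoxia and 10.5, 5.77 and 7.55 CPM in male hypoxia. The female libraries gave 21.0, 15.3 and 2.84 CPM and at 10.5, 24.8 and 21.4 CPM. All male hypoxia libraries were below the male normoxia libraries, and the female groups overlapped. The log2 fold change was -1.06 ± 0.54 in males (adjusted p = 0.198) and -0.26 ± 0.37 averaged (adjusted p = 0.635), so neither passed. Pdgfb, the ligand that draws pericytes to a sprout, was at 0.37 ± 0.13 (adjusted p = 0.0514), and it passed in 10 of 24 alternative settings. Among them were the fits without female normoxia library 3 (adjusted p = 0.00308) and without female hypoxia library 1 (adjusted p = 0.0252). Of 14 other tip cell genes tested 8 rose and 0 fell, with a median of 0.71, against 15.0% and 12.9% of all genes tested. Mcam rose by 1.18 ± 0.13 and Sparc, a matrix protein that fibroblasts also make, by 1.40 ± 0.21 (adjusted p = 0.000317 and 0.00122). Fibroblast markers moved with them: 8 of 12 rose and 0 fell, and their sum was 1909 to 2417 CPM in normoxia and 2007 to 3289 CPM in hypoxia. Without male hypoxia libraries 2 and 3, 3 of 12 fibroblast markers were called higher and 0 lower. The part of fibroblasts was not tested. Of the 15 other tip cell genes tested without those libraries, 4 were called higher and 0 lower.

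Of the 6 arterial and Notch genes among the 34, 5 rose and the ligand Dll4 did not pass. Notch4 (ENSMUSG00000015468), the Notch receptor largely of endothelium, was at 41.5, 42.3 and 42.0 CPM in male normoxia and 69.7, 71.2 and 60.3 CPM in male hypoxia. In females it was at 53.0, 55.3 and 60.4 CPM and at 73.9, 97.1 and 106 CPM. The groups did not overlap within a sex. Notch4 rose by 0.70 ± 0.09 (adjusted p = 0.00059). Its level per length was less even. The average transcript length given for Notch4 ran from 1336 to 4452 bases over libraries, a ratio of 3.33, and its TPM in male normoxia was 4.85, 5.77 and 16.3. Notch1, the receptor of many cell types, had the widest lengths of the 34, from 1877 to 9238 bases. It rose by 0.47 ± 0.12 in CPM (adjusted p = 0.0134), and with an offset for length the value was 0.75 with an adjusted p of 0.203. The adjusted p of Notch1 was 0.0751 without male hypoxia libraries 2 and 3.

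**Figure D3:**
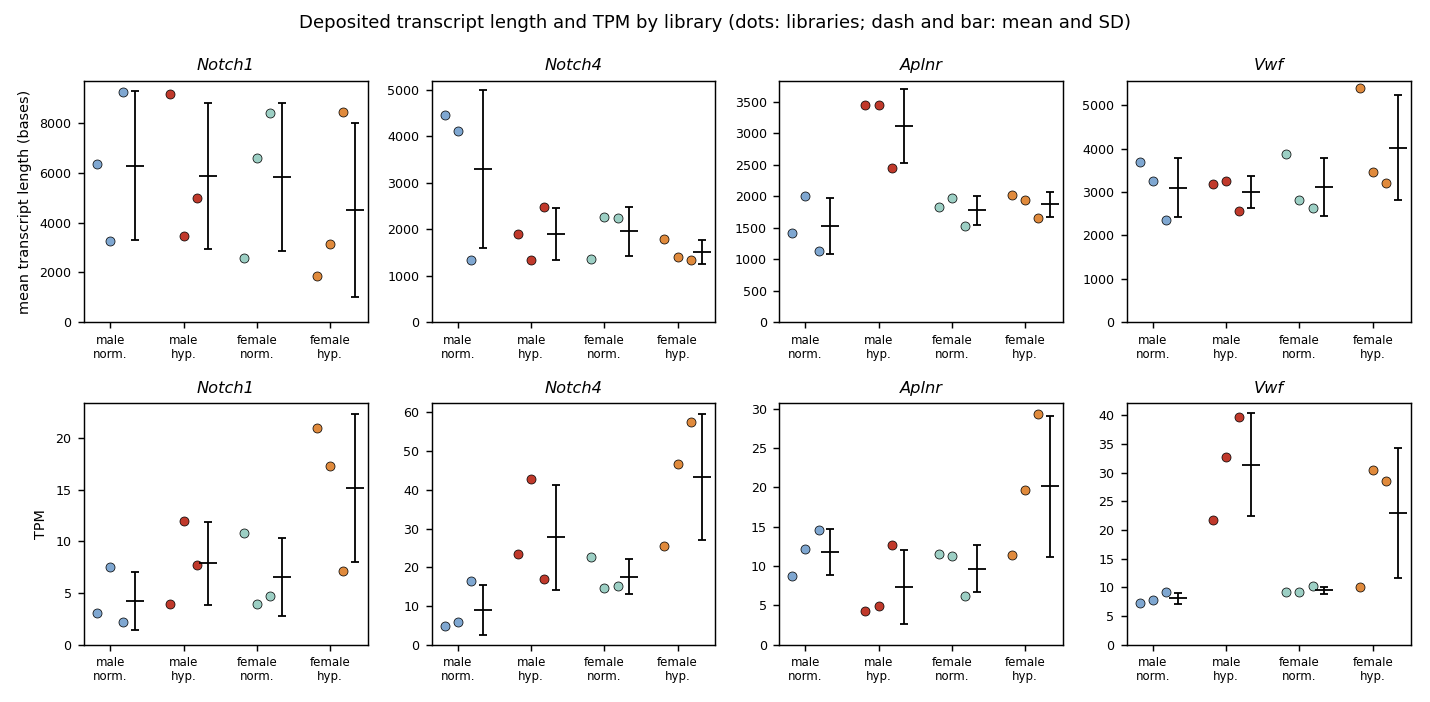
Average transcript length in bases (top) and TPM (bottom) of Notch1, Notch4, Aplnr and Vwf in each library, by group; dashes and bars are the mean and SD. Lengths differ within groups, so libraries with alike counts, such as the 3 male normoxia libraries for Notch4, differ in TPM.

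Hey1 (ENSMUSG00000040289), a target of Notch in arteries, was at 10.3, 10.7 and 6.80 CPM in male normoxia and 18.2, 20.2 and 17.9 CPM in male hypoxia. In females it was at 10.1, 9.77 and 15.5 CPM and at 18.4, 17.1 and 22.7 CPM. No hypoxia library overlapped with normoxia, and Hey1 rose by 0.87 ± 0.15 (adjusted p = 0.0022). Sox17 (ENSMUSG00000025902), the arterial SOXF factor, was at 14.4, 16.2 and 15.7 CPM and at 24.8, 29.1 and 34 CPM in males, and at 12.6, 13.6 and 23.1 CPM and at 25.5, 25.6 and 33.4 CPM in females. Its groups did not overlap within a sex, and it rose by 0.85 ± 0.15 (adjusted p = 0.00268). Unc5b, a netrin receptor of arteries and tip cells, rose by 0.52 ± 0.17 (adjusted p = 0.037), and that call was lost in 11 of 24 alternative settings. Among the fits with 1 library left out, it held without male normoxia library 2, male hypoxia library 1, female normoxia library 3 or female hypoxia library 1, and the adjusted p was 0.0567 to 0.0942 in the others. Dll4 was at 24.0, 25.1 and 28.1 CPM and at 24.4, 25 and 29.9 CPM in males, and at 26.1, 23.3 and 34.3 CPM and at 27.4, 43.6 and 38.8 CPM in females. Its groups overlapped in both sexes, with a value of 0.22 ± 0.13 (adjusted p = 0.229). Of 20 other arterial and Notch genes 6 rose and 1 fell, with a median of 0.21, against 15.0% and 12.9% of all genes tested. The ligand Jag1 rose by 0.80 ± 0.13 and Notch3, a receptor of mural cells, by 0.57 ± 0.12 (adjusted p = 0.00155 and 0.00588), while the Notch target Hes1 fell (-0.51 ± 0.13, adjusted p = 0.0142). Of these 20, 3 were called higher and 1 lower without male hypoxia libraries 2 and 3.

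Prox1 (ENSMUSG00000010175), the master factor of lymphatic endothelium, which cardiomyocytes express as well, was at 47.4, 39.8 and 54.9 CPM in male normoxia and 31.8, 30.5 and 33.3 CPM in male hypoxia. In females it was at 39.6, 36.4 and 33.5 CPM and at 35.5, 24.2 and 24.0 CPM. The male groups did not overlap, and the female groups overlapped through female hypoxia library 1. Prox1 fell, at -0.48 ± 0.11 on the log2 scale (adjusted p = 0.00958), and without male hypoxia libraries 2 and 3 it was -0.48 with an adjusted p of 0.0839. Of 8 lymphatic endothelial markers 2 rose (Pdpn and Flt4) and 0 fell, and 0 were called without those libraries. Some ventricular cardiomyocyte markers fell too. Of 13 markers 3 fell and 0 rose, against 12.9% and 15.0% of all genes tested, and 10 did not pass. The median was -0.20, and 0 were called in females alone. Their mean log2 CPM overlapped, at 11.21 to 11.37 in male normoxia and 11.09 to 11.22 in male hypoxia. The sum of these markers was 70361 to 78733 CPM in normoxia and 55249 to 68698 CPM in male hypoxia. In female hypoxia it was 77699 CPM in library 1, the library with the highest Prox1 of its group, and 57797 and 58735 CPM in the other libraries. None of the 13 was called without male hypoxia libraries 2 and 3, and their part in the Prox1 result was not tested. Mmrn1, a multimerin of lymphatic endothelium and platelets, ran from 0.0644 to 9.20 CPM. In females it was at 0.0644 to 6.10 CPM in normoxia and 6.45 to 9.20 CPM in hypoxia, without overlap. The male groups of Mmrn1 overlapped. It had 3.38 estimated counts in male hypoxia library 2 and 1.07 in female normoxia library 1, where its average transcript length was also 1804 bases against 3708 to 4227 in the others. Its value was 0.24 ± 0.72 (adjusted p = 0.832).

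Angpt1 (ENSMUSG00000022309), made by mural cells and cardiomyocytes, was at 20.1, 16.3 and 24.2 CPM in male normoxia and 18.5, 13.4 and 10.9 CPM in male hypoxia. In females it was at 20.6, 23.9 and 12.3 CPM and at 14.7, 7.01 and 8.22 CPM. The groups overlapped in both sexes. Averaged, Angpt1 fell (-0.71 ± 0.22, adjusted p = 0.0342), and the call was lost in 11 of 24 alternative settings. It held without the same libraries as that of Unc5b, and the adjusted p was 0.0631 to 0.0869 with any 1 of the others left out. With library totals in place of TMM factors it was -0.53 with an adjusted p of 0.0708. Angpt2, the other ligand of Tek, rose as given above. Mural cell markers gave 4 of 12 higher and 1 lower, with a median of 0.27, and summed to 2622 to 4022 CPM in normoxia and 2924 to 3665 CPM in hypoxia. The counts were 1 higher and 0 lower without male hypoxia libraries 2 and 3. Of 19 other angiogenic ligands and receptors tested 4 rose and 2 fell, or 1 and 1 without those libraries. Among all genes tested, with all libraries, 15.0% were called higher and 12.9% lower. Fgf1 fell (-0.78 ± 0.09, adjusted p = 0.000435) and the receptor Fgfr1 rose by 0.46 ± 0.08 (adjusted p = 0.00247). Vegfa, the main ligand for vessel growth, was at -0.12 ± 0.10 (adjusted p = 0.405).

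Each gene was also set against the median log2 CPM of the 16 pan-endothelial genes in the same library, which describes how it moved relative to endothelial transcripts as a whole. This median ranged from 5.71 to 6.24 in normoxia and from 6.36 to 6.83 in hypoxia. Relative to it, Cxcr4 was 0.49 higher in hypoxia in males and 0.78 higher in females, with no overlap in either sex. Vwf was 0.83 and 0.58 higher, and Esm1 0.89 and 1.17 higher, both with overlap in females. Other tip cell genes did not gain in both sexes. Angpt2 was at 0.46 in males and -0.05 in females, with overlap in both. Pdgfb was at -0.25 and -0.30, and the capillary gene Emcn at -0.22 and -0.43. These 2 overlapped in males and were lower without overlap in females. Notch4 differed by 0.02 and 0.03, so it moved about as the pan-endothelial median did. Prox1 was at -1.21 and -1.08 and did not overlap in either sex. Angpt1 was at -1.16 and -1.60, and Dll4 at -0.62 and -0.29. Plvap was at -0.34 in males and -1.50 in females, and Apln at -1.73 and 0.18. Within the 16 genes themselves, Sox18 was 0.48 and 0.23 higher and Tek was at -0.26 and -0.18, each without overlap in either sex. Both lay at the middle of the 16 in some libraries and set the median there, so their distance from it is not independent of it. No test was made of these ratios.

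**Figure D4:**
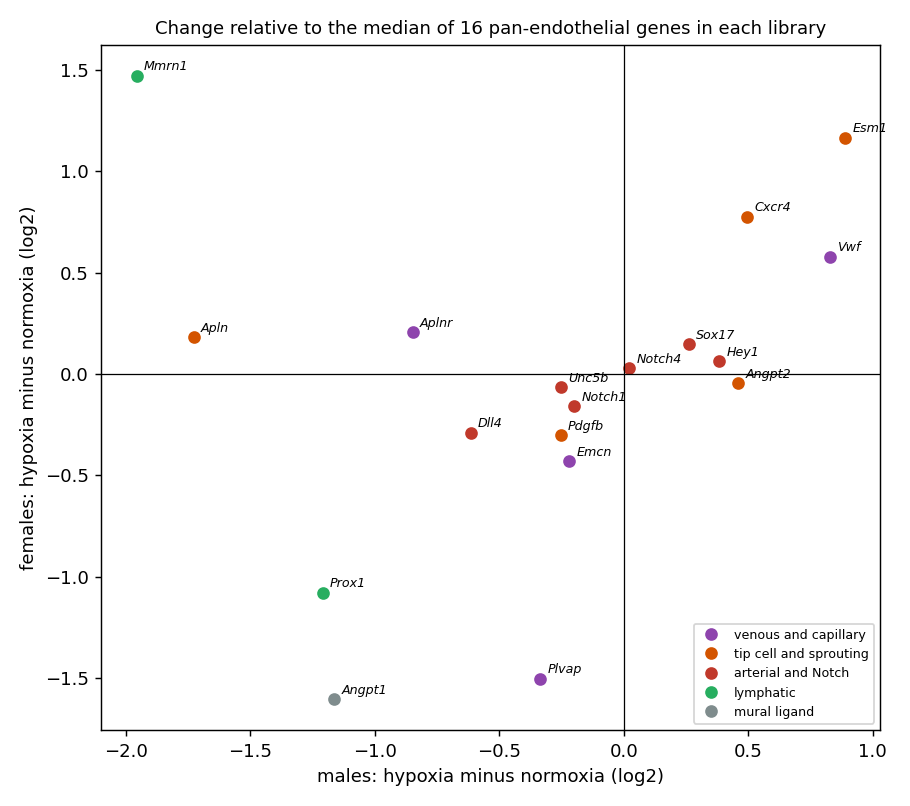
Change in log2 CPM relative to the median of the 16 pan-endothelial genes in each library, hypoxia minus normoxia, for males (x axis) and females (y axis); each point is 1 gene, coloured by role. Vwf, Cxcr4 and Esm1 are among the genes above 0 on both axes. Prox1, Angpt1, Pdgfb and Emcn are among those below 0 on both. Mmrn1, Apln and Angpt2 are among those with opposite signs.

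In males, 13 of the 34 genes rose and 1 fell, against 8.47% and 7.10% of all genes tested. The 13 were Pecam1, Cdh5, Eng, Mmrn2, Esam, Sox18, Fli1, Vwf, Cxcr4, Angpt2, Sox17, Notch4 and Hey1, and Prox1 fell. The male hypoxia libraries were all above the male normoxia libraries for 22 of 34 genes (21.5% of all genes tested) and below for Apln and Prox1 (19.8%). Without male hypoxia libraries 2 and 3, 0 of 34 passed in males by edgeR's test, against 0.341% of all genes called higher and 0.109% lower in that fit. At an unadjusted p under 0.05 there were 13 of 34, against 14.4% of all genes. That fit leaves 1 male hypoxia library, assumed to vary like the other groups.

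In females, 10 of the 34 genes rose and 0 fell, against 3.97% and 2.02% of all genes tested. They were Cdh5, Eng, Mmrn2, Esam, Nos3, Sox18, Fli1, Vwf, Cxcr4 and Notch4. The female hypoxia libraries were all above the normoxia ones for 19 of 34 genes (13.2% of all genes tested) and below for Plvap (12.7%). The female count depended on single libraries, and so did the share of all genes called. Without female normoxia library 1, 2 or 3, the genes of the 34 that rose were 4, 3 and 17, against 1.08%, 0.700% and 4.49% of all genes, and 0, 0 and 1 fell. Without female hypoxia library 1, 2 or 3 they were 18, 3 and 1, against 8.76%, 0.433% and 0.287% of all genes, and 2, 0 and 0 fell. The gene left without female hypoxia library 3 was Cxcr4. Cxcr4 rose by 1.17 ± 0.17 in males and 1.48 ± 0.17 in females (adjusted p = 0.00276 and 0.00267), the smallest p among the 34 in females.

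The difference between the sexes in the effect of hypoxia was tested for each gene. None of the 34 passed: 0 were higher or lower, against 0% and 0.00716% of all genes tested, and 0 passed with DESeq2. At an unadjusted p under 0.05 there were 2 of 34 by edgeR, against 6.79% of all genes. The 2 were Cldn5 (-1.40 ± 0.53, female minus male, adjusted p = 0.715) and Plvap (-1.18 ± 0.41, adjusted p = 0.665). For Cldn5 the difference was -0.60 ± 0.20 (adjusted p = 0.704) without female normoxia library 3, and the female value turned from -0.30 ± 0.37 to 0.49 ± 0.15. The standard errors set what could be seen. The difference was -0.02 ± 0.17 for Mmrn2 and 0.04 ± 0.18 for Notch4, while it was 1.59 ± 0.75 for Apln (adjusted p = 0.73), whose 3 female normoxia libraries ran from 2.84 to 21.0 CPM. Levels were compared between the sexes too. In normoxia 0 of 34 passed by edgeR or DESeq2, against 0.0430% of all genes called higher and 0.0287% lower in females. At an unadjusted p under 0.05 there were 7 of 34, against 7.29% of all genes. In hypoxia 0 of 34 passed, against 0.0358% and 0.115%, and 9 of 34 were at an unadjusted p under 0.05, against 9.63% of all genes. There, Plvap was lower in females by DESeq2 (-1.30, adjusted p = 0.00717), and edgeR gave -1.32 ± 0.29 with an adjusted p of 0.166. Without female hypoxia library 1, Notch4 was higher in females (0.61 ± 0.10, adjusted p = 0.038).

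Of 26 other endothelial genes, read off the same fit, 17 rose and 0 fell, with a median of 0.51. Among all genes tested, with all libraries, 15.0% were called higher and 12.9% lower. Clec14a, a C-type lectin of endothelium, rose by 1.35 ± 0.13 and Ptprb, the phosphatase that acts on TIE2, by 0.86 ± 0.11 (adjusted p = 0.000154 and 0.000597). Kdr, the main VEGF receptor, was at -0.19 ± 0.10 (adjusted p = 0.157) and the flow-responsive factor Klf2 at -0.66 ± 0.27 (adjusted p = 0.0911), so neither passed. Without male hypoxia libraries 2 and 3, 11 of 26 were called higher and 0 lower. The 16 pan-endothelial genes summed to 1094, 1216 and 1277 CPM in male normoxia and 1765, 1871 and 2133 CPM in male hypoxia. In females they summed to 1279, 1157 and 1597 CPM and to 1735, 2127 and 2334 CPM. All hypoxia libraries were above all normoxia libraries. The 7 endocardial markers tested gave 1 higher and 1 lower, with a median of -0.06, and 0 were called without male hypoxia libraries 2 and 3. Beside these, 7 of 8 erythroid markers and 17 of 20 mitosis genes rose and 0 fell. Whether the dividing cells were endothelial was not tested.

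**Figure D5:**
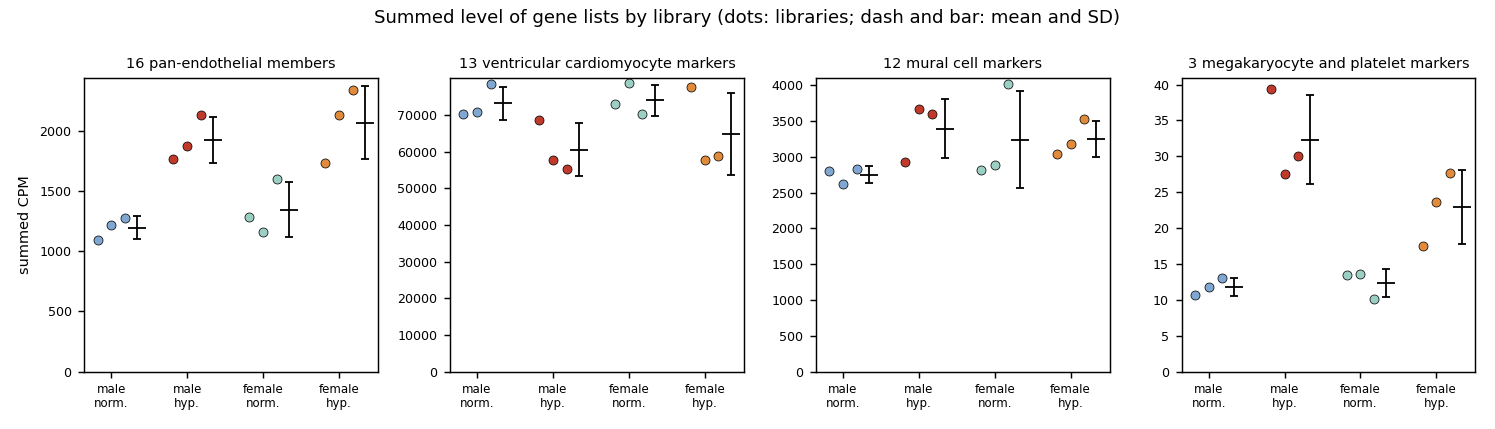
Summed CPM of 16 pan-endothelial genes and of ventricular cardiomyocyte, mural cell and megakaryocyte or platelet markers in each library, by group; dashes and bars are the mean and SD. The pan-endothelial and platelet sums do not overlap between normoxia and hypoxia, while the mural sums do, and female hypoxia library 1 keeps the cardiomyocyte sum of normoxia.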

How the data were processed

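The submitters' processing notes name FastQC, Salmon and the build GRCm39; versions, the annotation release and the strand setting are not given in the sources used here. The library kit keeps strand, per the labels. Per the file headers, the authors deposited 3 values a gene in every library: an estimated count, an abundance in TPM and an average transcript length in bases. The deposited lengths were used only for an offset and as a description. The deposited TPM summed to between 889905 and 926060 per library, and 0 columns of values belonged to no sample.

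Estimated counts were rounded to whole numbers. edgeR 4.0.16 in R 4.3.3 (filterByExpr, TMM, quasi-likelihood) fitted 4 group means to 12 libraries, with 8 residual degrees of freedom. Adjusted p-values are Benjamini-Hochberg values over the 13960 genes tested, from two-sided tests, and the threshold was 0.05. The averaged contrast is the mean of the male and female log2 fold changes. CPM are scaled by TMM, and log2 CPM used a prior count of 2. Standard errors were computed from each fold change and its F statistic. Genes were matched by symbol, which 99.3% of the table's identifiers had. The 24 alternative settings for single genes used DESeq2 1.42.0, limma 3.58.1 (voom), other scaling, filters, a length offset, a replicate block and left-out libraries; leaving out TMM factors was chosen after seeing the data.

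The 34 genes and the other lists were chosen with earlier results of these data known. Values in each library are given for the called genes with the smallest p of each role and for genes that went against the pan-endothelial median. Erg, Cldn5, Aplnr and Dll4 were given so after their values were seen. Mmrn1 was given as ranges, and Hes1, Vegfa, Kdr and Klf2 were named, also after their values were seen. The fitting scripts were tested on simulated data. Promoter windows are RefSeq's on GRCm38.p6, another build than that of the table, so they give sequence and position only.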

Additional observations from a re-analysis of the deposited data

How the results depend on the processing

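Of the 24 genes called in the averaged contrast, 13 were called in all 24 alternative settings (Pecam1, Cdh5, Eng, Mmrn2, Esam, Nos3, Sox18, Fli1, Vwf, Cxcr4, Sox17, Notch4 and Hey1), and all 24 kept their direction. With 1 library left out, the averaged count (24) ran from 20 to 27, the male count (14) from 10 to 21, the female count (10) from 1 to 20 and that of females against males in hypoxia (0) from 0 to 1. Without male hypoxia libraries 2 and 3 the averaged count was 13 and the male count 0, and without female normoxia library 3 as well the male count was 1. With only the compared libraries in the fit the male count was 22 and the female count 1 (Cxcr4). DESeq2 gave 19 in females and 1 for females against males in hypoxia (Plvap). With library totals alone the counts were 23 in males and 17 in females. The direction reversed for genes that had not passed: Aplnr with the length offset (-0.14), Apln without female normoxia replicate 1 (0.00382), and Mmrn1 without male hypoxia replicate 3 (-0.29) or without female normoxia replicate 1 (-0.04). With 1 library left out, Apln ran from -0.50 to 0.00382 and Mmrn1 from -0.29 to 0.57. The causes were not tested, beyond the fewer libraries in those fits. Within a sex, same-numbered normoxia and hypoxia libraries did not deviate together (correlations -0.0454 to 0.0286). Same-numbered male and female libraries were not compared, so a number shared between the sexes could still mean something. With the replicate block the counts were 26 averaged, 18 in males, 15 in females and 0 in the other contrasts. The share of all genes called changed with the fit too. In females it was 3.97% higher with all libraries, and 0.287% to 8.76% with 1 female library left out. For DESeq2, library totals, the replicate block and the fits of only the compared libraries, this share is not given here. Larger or smaller counts in any of these fits thus do not by themselves describe the endothelial genes.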
